A study of Mus musculus with 22 samples.

Results

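The TREM2-APOE core of the disease-associated microglia programme was taken as 10 genes chosen by name: Trem2, Tyrobp, Apoe, Lpl, Cst7, Itgax, Clec7a, Spp1, Gpnmb and Cd9. Of these, 9 were measured here among the 21995 genes of the count table, and Clec7a was not analysed here. On GRCm38 by GENCODE M21, Tyrobp (ENSMUSG00000030579, chr7:30413760-30417585), Apoe (ENSMUSG00000002985, chr7:19696109-19699188) and Itgax (ENSMUSG00000030789, chr7:128129547-128150657) lie on chromosome 7, and Gpnmb (ENSMUSG00000029816, chr6:49036546-49070929) and Cd9 (ENSMUSG00000030342, chr6:125460266-125494791) on chromosome 6. Trem2 (ENSMUSG00000023992, chr17:48346401-48354147), Lpl (ENSMUSG00000015568, chr8:68880491-68907448), Cst7 (ENSMUSG00000068129, chr2:150570415-150578944) and Spp1 (ENSMUSG00000029304, chr5:104435118-104441050) lie apart. Counts cover the exons of each gene. The genes were read in whole spinal cord of 22 mice, 1 RNA-seq library per mouse. All mice were on a C57BL/6 background. Aging was examined in 8 young wild-type mice at 3 to 4 months and 8 old wild-type mice at 18 to 24 months, with libraries made with the Roche RNA KAPA Hyperprep kit. These mice are described as male. Amyotrophic lateral sclerosis (ALS) was examined in 3 symptomatic SOD1 G93A mice, which carry a high-copy transgene of mutant human SOD1, and 3 wild-type controls. These 6 mice were 5 to 6 months old by their labels, and their libraries were made with the Illumina TruSeq kit. Both of these groups held females and a male, and since the labels do not give the sex of each library, sex was not modelled. A transgenic line that overexpresses a mutant enzyme is a model of the inherited disease and not of sporadic ALS. Libraries are numbered within each group only to name them.

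Microglia are the resident macrophages of the central nervous system. TREM2 is a surface receptor for lipids, lipoproteins and cell debris that signals through the adaptor TYROBP (DAP12), whose phosphorylated motif recruits the kinase SYK. APOE, a lipid carrier secreted by astrocytes and by activated microglia, is among its ligands. Around plaques, damaged myelin and dying neurons, microglia are known to pass through a transition that depends only in part on TREM2. In it homeostatic genes decline and genes of lipid handling, lysosomes and adhesion increase, including those studied here. Several of the genes are also used by other cells of the spinal cord: astrocytes express Apoe, motor neurons express Spp1, and oligodendrocytes and other glia express Cd9.

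The young libraries held 5078092 to 9358055 counts, the old libraries 5664869 to 9145600, the control libraries 10693060 to 13219797 and the SOD1 G93A libraries 9675610 to 11872431. Levels are given as CPM, the count of a gene scaled to a common library size with TMM factors, and 3 counts corresponded to 0.231 to 0.582 CPM depending on the library. Genes of microglia were detected in every group, whereas the summed CPM of 8 T and NK cell markers was at most 3.17, that of 4 B cell markers at most 1.41 and that of 5 neutrophil markers at most 2.2 in any library. Old library 6 stood apart from the other old libraries with the lowest level of all 9 genes, and SOD1 G93A library 2 had the lowest level of all 9 genes in its group. Results are therefore also given without them below.

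Promoter sequence from RefSeq on GRCm38.p6 was given for 8 of the 10 genes, at 12 transcription starts. These genes took in Clec7a, which was not analysed for expression, and left out Tyrobp and Lpl. Apoe, Spp1 and Clec7a had several starts, and some windows of Apoe and of Clec7a overlapped. The 12 starts are therefore not 12 separate promoters. The 250 bases before each start were searched on both strands for motifs of factors known in microglia and macrophages, because the measured genes moved together. A loose form of the AP-1 motif, TGANTCA with any base at N, was found before 2 of the 12 starts, against 6.75% of 32851 starts in the genome. The match read TGAGTCA before Itgax and TGAATCA before Trem2. Of these, only the Itgax match fits the stricter form with C or G at N, which was not searched separately. The PU.1 motif GAGGAAGT was found before 1 of the 12, against 2.44% of all starts. The E-box CACGTG and the M-box TCATGTG, which MITF-family factors bind, were found before none of the 12, against 6.02% and 3.25% of all starts. No match overlapped a match of another motif. A match describes the letters and not the binding of a factor. The 3 windows with a match are printed below with the match in capitals: Trem2 at chr17:48346151-48346400, Itgax at chr7:128129300-128129549 and Spp1 at chr5:104434861-104435110, all on the plus strand. The Trem2 match lay 9 to 3 bases, the Itgax match 56 to 50 bases and the Spp1 match 113 to 106 bases before the start.
Trem2: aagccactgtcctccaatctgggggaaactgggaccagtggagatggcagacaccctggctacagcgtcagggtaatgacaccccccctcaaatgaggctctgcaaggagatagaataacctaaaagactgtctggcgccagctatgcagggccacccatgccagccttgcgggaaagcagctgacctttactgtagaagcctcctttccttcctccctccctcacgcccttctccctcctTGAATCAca
Itgax: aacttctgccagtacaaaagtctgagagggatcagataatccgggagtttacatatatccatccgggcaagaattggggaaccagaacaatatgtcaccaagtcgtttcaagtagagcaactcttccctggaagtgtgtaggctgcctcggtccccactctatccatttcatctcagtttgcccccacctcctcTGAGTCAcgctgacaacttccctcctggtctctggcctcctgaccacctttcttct
Spp1: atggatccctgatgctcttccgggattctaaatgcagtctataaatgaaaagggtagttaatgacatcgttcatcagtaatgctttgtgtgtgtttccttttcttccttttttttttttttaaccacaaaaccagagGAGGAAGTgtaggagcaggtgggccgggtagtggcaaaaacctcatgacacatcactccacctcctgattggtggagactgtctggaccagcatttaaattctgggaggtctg

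In the comparison of old with young mice, which addressed what changes in the spinal cord during normal aging, all 9 measured genes rose. The threshold was that of the study, a log2 fold change above 1 and an adjusted p-value under 0.05, and edgeR adjusted p denotes here the Benjamini-Hochberg adjusted p-value of edgeR's quasi-likelihood test over all genes. Of 13647 genes tested, 297 rose by this threshold, a background of 2.18%, and 0.044% fell. The libraries of the old and young groups did not overlap for 8 of the 9 genes, all higher in old mice, against 3.66% of all genes tested that were higher and 1.66% that were lower without overlap. Lpl was the exception. Cst7 and Itgax passed the filter on low counts through the old libraries alone, so they could be found higher but not lower. Log2 fold changes ran from 1.02 to 6.61 around a median of 2.27. SE denotes here the absolute log2 fold change divided by the square root of the F statistic of edgeR's test. It is an approximate error and depends on the fit that gave it. In bulk tissue, more cells of a type and more RNA per cell cannot be told apart.

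In the comparison of SOD1 G93A with control mice, which addressed the symptomatic stage of ALS, the same 9 genes rose, with a median log2 fold change of 3.87 and a range of 2.46 to 7.77. The background was higher in this comparison, as 1223 of 14386 genes tested rose, or 8.5%, and 1.2% fell. All 9 genes were higher with no overlap between the groups, against 25.7% of all genes tested that were higher and 24.7% that were lower, large shares because only 3 libraries were set against 3. The p-values of both comparisons judge the difference between the groups against the spread between their mice, which edgeR moderates across genes. The plot of the levels by library shows both comparisons side by side.

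**Figure D1:**
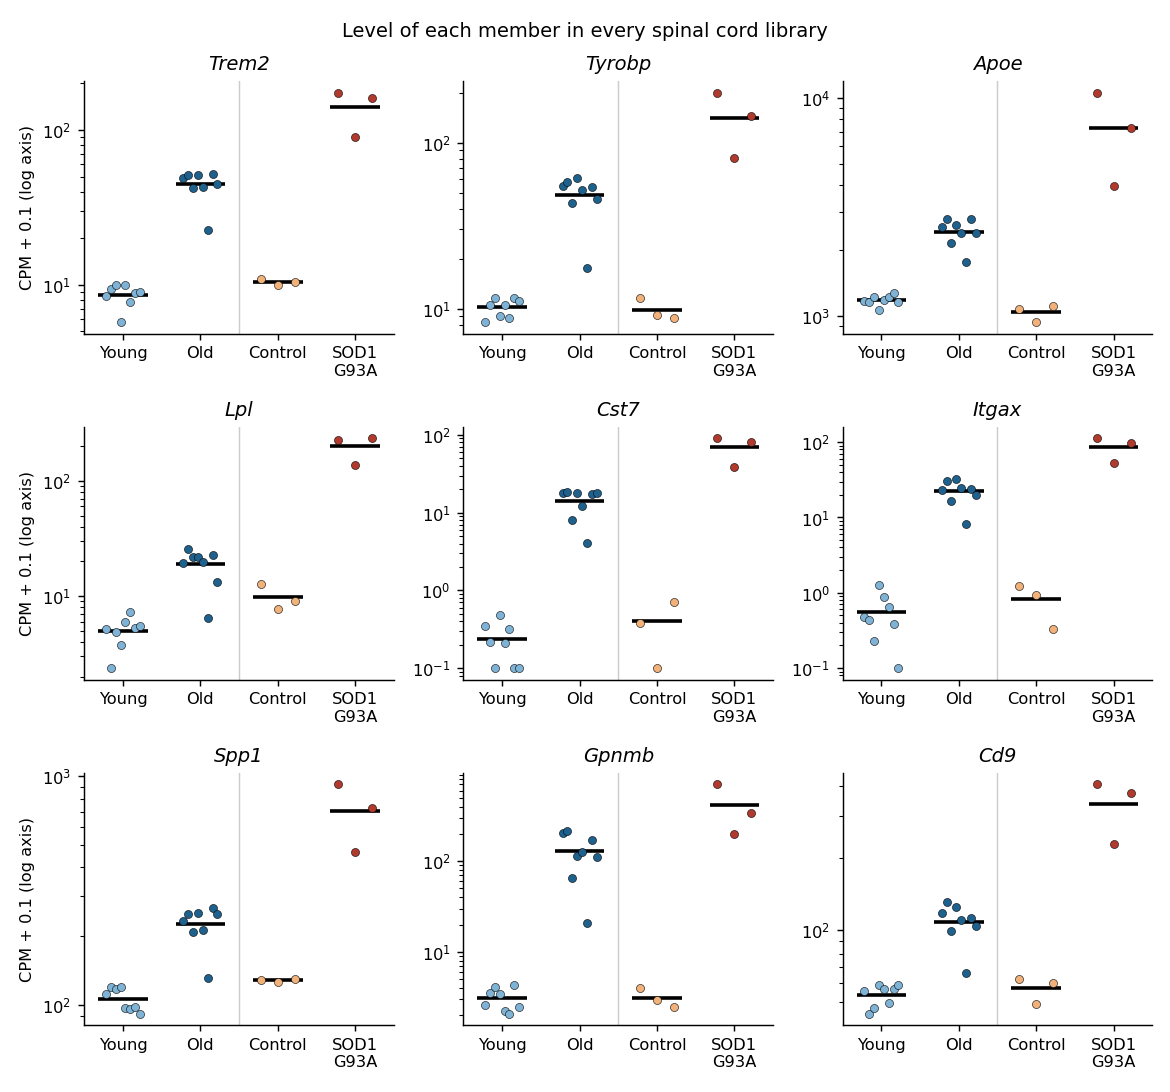
Level of each of the 9 measured genes in each of the 22 libraries (points), as CPM + 0.1 on a log axis, by group, with a line at the group mean. For every gene the SOD1 G93A libraries lie above the control libraries, and for all but Lpl the old libraries lie above the young ones; Cst7 and Itgax start near 0 in young and control mice.

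Trem2 and Tyrobp encode the receptor and its adaptor. In young mice Trem2 ranged from 5.63 to 9.86 CPM with a median of 8.83, and in old mice from 22.5 to 52.0 with a median of 46.8. Every old library lay above every young library. The increase was 5.15-fold, a log2 fold change of 2.37 (SE 0.14, edgeR adjusted p = 1.48e-11). Trem2 was at 10.8, 9.93 and 10.3 CPM in the 3 control libraries and at 175, 89.7 and 160 CPM in the 3 SOD1 G93A libraries. The lowest SOD1 G93A library, number 2, was still well above every control. This was a 13.7-fold increase, a log2 fold change of 3.77 (SE 0.25, edgeR adjusted p = 8.14e-05).

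Tyrobp followed closely. Its level ran from 8.16 to 11.4 CPM in young mice, with a median of 10.4, and from 17.4 to 60.7 CPM in old mice, with a median of 52.8. The groups did not overlap, although old library 6, at 17.4 CPM, lay far below the next old library at 43.2 CPM. This was a log2 fold change of 2.27 (SE 0.17, edgeR adjusted p = 9.18e-10). In the ALS experiment the controls stood at 11.5, 9.01 and 8.61 CPM and the SOD1 G93A libraries at 200.1, 80.5 and 144 CPM, without overlap. The increase was 14.7-fold, a log2 fold change of 3.87 (SE 0.32, edgeR adjusted p = 0.00016). Per transcript length the adaptor was the more abundant of the pair in every library. The ratio of Tyrobp to Trem2 in FPKM, a length-scaled fragment count, had a median of 2.63 in young, 2.36 in old, 2.04 in control and 2.03 in SOD1 G93A mice, with overlapping ranges between the groups of each comparison.

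Apoe and Lpl are the lipid genes of the set. Apoe, the lipid carrier, was by far the most abundant of the 9 genes per length in all 4 groups. It ranged from 1061 to 1272 CPM in young mice (median 1174) and from 1762 to 2799.7 CPM in old mice (median 2487). The old libraries all exceeded the young ones. The fold change was 2.07, a log2 fold change of 1.05 (SE 0.07, edgeR adjusted p = 1.49e-10). In controls Apoe was at 1072, 935 and 1117 CPM, and in SOD1 G93A mice at 10602, 3940.2 and 7264 CPM. SOD1 G93A library 1 was thus 2.69 times library 2, and both were above every control. Its log2 fold change was 2.80 (SE 0.31, edgeR adjusted p = 0.000466), or 6.98-fold. Apoe took a median of 0.743% and up to 1.05% of all counts in SOD1 G93A mice, against a median of 0.106% in controls, and it ranked between 3 and 9 among all genes by FPKM in the SOD1 G93A libraries, against 19 to 22 in controls. In old mice its median share was 0.252%, against 0.118% in young mice.

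Lpl encodes lipoprotein lipase, which releases fatty acids from lipoproteins. It was scarce in young mice, at 2.28 to 7.13 CPM with a median of 5.15, and reached 6.32 to 25.6 CPM with a median of 20.8 in old mice. This was the one gene of the set whose groups overlapped, through old library 6 alone, since the other old libraries began at 13.3 CPM and the highest young library was at 7.13 CPM. Old mice differed from young by a log2 fold change of 1.93 (SE 0.22, edgeR adjusted p = 4.68e-07). In the ALS experiment Lpl stood at 12.6, 7.66 and 8.99 CPM in controls and at 226, 138 and 233 CPM in SOD1 G93A mice. The groups lay far apart, with a 20.5-fold increase and a log2 fold change of 4.36 (SE 0.25, edgeR adjusted p = 8.14e-05).

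Cst7, Itgax and Gpnmb were low in young and control mice, Cst7 and Itgax close to 0, and had the largest fold changes of the set. In both comparisons Cst7 and Itgax passed the filter on low counts only through the group where they were high, so a fall could not have been called. Cst7 encodes cystatin F, an inhibitor of lysosomal cathepsins. It was at 0 to 2 counts in each of the 8 young libraries, 8 counts in all, and at 4.01 to 18.2 CPM in old mice with a median of 17.4. No young library exceeded 0.388 CPM, so the groups did not overlap. The ratio of the summed counts per effective library size was 112, with an exact 95% interval of 56.4 to 260 that covers counting error only. The fitted log2 fold change of 6.61 (SE 0.43, edgeR adjusted p = 8.33e-11) ranked 1 among the genes tested and depends on the small count added to avoid zeros. In controls Cst7 was at 0.285, 0 and 0.615 CPM, and in SOD1 G93A mice at 90.3, 38.3 and 81.1 CPM, also without overlap. The log2 fold change was 7.77 (SE 0.55, edgeR adjusted p = 9.12e-05) and the ratio of summed counts 230.3, with an interval of 129 to 462.

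Itgax encodes CD11c, an integrin subunit that pairs with the beta subunit encoded by Itgb2. It was at 0 to 1.16 CPM in young mice (median 0.356) and at 8.02 to 32.1 CPM in old mice (median 23.2). The lowest old library, number 6, was several times above the highest young library. Its log2 fold change was 5.64 (SE 0.33, edgeR adjusted p = 1.7e-11), which ranked 3 in the comparison. In the ALS experiment Itgax stood at 1.14, 0.842 and 0.231 CPM in controls and at 112, 52.6 and 96.6 CPM in SOD1 G93A mice. These groups did not overlap either, with a log2 fold change of 6.92 (SE 0.43, edgeR adjusted p = 8.14e-05).

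Gpnmb encodes a transmembrane glycoprotein of lysosomes and melanosomes. Young mice had 1.98 to 4.24 CPM with a median of 2.89, and old mice 20.98 to 213 CPM with a median of 121. The old group was above the young group throughout and was also the most dispersed of any gene in the set, with its highest library 10.2 times its lowest. The log2 fold change was 5.45 (SE 0.39, edgeR adjusted p = 4.51e-10), which ranked 6. Controls were at 3.89, 2.86 and 2.38 CPM and SOD1 G93A mice at 706, 197 and 336 CPM. The SOD1 G93A group was again dispersed, 3.58-fold from lowest to highest, and lay above every control. Its log2 fold change was 7.10 (SE 0.53, edgeR adjusted p = 0.000122).

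Spp1 and Cd9, like Apoe, were already well expressed in young and control mice and changed by smaller factors. Spp1 encodes osteopontin, a secreted ligand of CD44 and of integrins. It ranged from 91.4 to 119.9 CPM in young mice (median 105) and from 131 to 265 CPM in old mice (median 242). The groups were separate, with old library 6 nearest to the young mice. The log2 fold change was 1.08 (SE 0.10, edgeR adjusted p = 3.28e-08). Controls were close together at 128, 126 and 130.5 CPM, and SOD1 G93A mice were at 925, 465 and 725 CPM. All SOD1 G93A libraries were above the controls, with a log2 fold change of 2.46 (SE 0.22, edgeR adjusted p = 0.000199). The Spp1 locus shares 1252 bases with Gm42793, an unclassified transcript on the same strand, between which the counting could have divided reads.

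Cd9 encodes a tetraspanin of the cell surface. Its level was 44.6 to 59.2 CPM in young mice with a median of 56.2, and 66.5 to 132 CPM in old mice with a median of 112. The groups did not overlap, but the change was the smallest of the set and lay at the threshold, with a log2 fold change of 1.02 (SE 0.10, edgeR adjusted p = 4.23e-08). Without young library 2 it was 0.98, without old library 2 it was 0.97 and without old library 4 it was 0.99, and without young library 3 it was also not above 1, although its adjusted p-value stayed at or below 2.04e-07 in these fits. In the ALS experiment Cd9 was at 62.3, 49.1 and 60.2 CPM in controls and at 409, 229.7 and 374 CPM in SOD1 G93A mice. This increase was well past the threshold, with a log2 fold change of 2.56 (SE 0.21, edgeR adjusted p = 0.000158). Cd9 overlaps Gm28809, annotated as antisense, over 3316 bases and Gm26728 on the other strand over 368 bases, and the use of strand in counting is not given in the sources used here.

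The order of the levels per length differed between groups. In young mice mean FPKM ran from Apoe (1133) through Spp1 (72.4), Cd9 (42.6), Tyrobp (17.8) and Trem2 (6.64), each below every library of the gene before it, to Lpl (1.18), Gpnmb (1.07), Itgax (0.155) and Cst7 (0.133). Within that low end, Lpl and Gpnmb overlapped, as did Itgax and Cst7. In old mice Gpnmb reached a mean of 43.1 FPKM and stood beside Trem2 at 36.8, with overlapping libraries, and the mean of Cst7, 14.0 FPKM, stood above that of Lpl, 4.44. From Tyrobp downwards each gene in old mice overlapped its neighbour above. SOD1 G93A mice showed a like order, from Apoe at 7303 FPKM, Spp1 at 491 and Cd9 at 272 down to Cst7 at 70.6, Lpl at 46.9 and Itgax at 22.2. The median ratio of Gpnmb to Trem2 in FPKM was 0.176 in young and 0.995 in old mice, and 0.102 in control and 0.798 in SOD1 G93A mice.

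The size of the change was compared between the experiments in one fit of all 22 libraries, as the log2 fold change in SOD1 G93A mice minus that in old mice. The experiments share no library. Kit coincides with experiment, and so do sex composition, age of the reference mice and sequencing depth, so their parts cannot be told apart. The difference was positive for all 9 genes and passed an edgeR adjusted p of 0.05 for 6 of them, against 11.6% of 14502 genes tested. A negative difference passed for 14.2% of the genes tested. It was largest for Lpl, at 2.40 (SE 0.37, edgeR adjusted p = 5.48e-05), followed by Apoe at 1.73 (SE 0.23, edgeR adjusted p = 1.66e-05). Tyrobp differed by 1.58, Cd9 by 1.51, Trem2 by 1.38 and Spp1 by 1.35, with edgeR adjusted p-values from 2.57e-05 to 0.00208. For Gpnmb the difference was 1.62 (SE 0.88, edgeR adjusted p = 0.183), for Itgax 1.24 (SE 0.88, edgeR adjusted p = 0.322) and for Cst7 1.09 (SE 1.54, edgeR adjusted p = 0.65). The errors of these 3 differences were larger than those of the other 6, and the values do not show that the changes were equal. The plot of the fold changes shows both experiments for each gene.

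**Figure D2:**
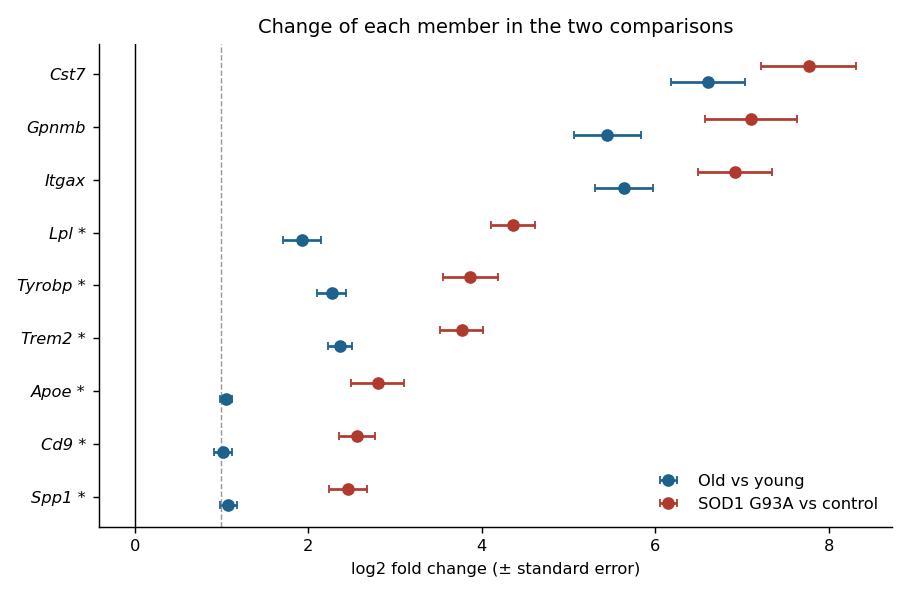
Log2 fold change of the 9 genes in old against young mice and in SOD1 G93A against control mice. Bars show the approximate SE, derived from the F statistic of edgeR's test. The dashed line marks a log2 fold change of 1, and asterisks mark genes whose 2 changes differ at an adjusted p under 0.05. Every gene lies past the dashed line in both experiments, from Cd9 at 1.02 in old mice to Cst7 at 7.77 in SOD1 G93A mice, and 6 genes carry an asterisk.

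The lowest library was the same for all 9 genes in old and in SOD1 G93A mice. Old library 6 was the lowest of the 8 old libraries for all 9 genes. Its total of 7055388 counts was within the range of the group, but its summed level of 10 genes of the microglia and macrophage lineage was 188 CPM, against 247 to 305 CPM in the other old libraries, and its summed level of 6 neuronal genes was the highest, at 6980 CPM against 4980 to 6170 CPM. The highest old library was number 2 for 4 genes, number 7 for 3 and number 4 for 2. SOD1 G93A library 2 was the lowest of its group for all 9 genes, with 504 CPM of the lineage genes against 792 to 938 CPM, 11000 CPM of 7 astrocyte genes against 15600 to 17600 CPM, and 4640 CPM of the neuronal genes against 2750 to 3160 CPM. Gfap, at a mean of 9260 CPM in SOD1 G93A mice, made up the largest part of the astrocyte sum. SOD1 G93A library 1 was the highest for 8 of the 9 genes. The part of cell composition in these differences between libraries was not tested. Without old library 6 all 9 genes rose with age, with log2 fold changes from 1.10 for Apoe and Cd9 to 6.75 for Cst7. Without SOD1 G93A library 2 all 9 genes rose in SOD1 G93A mice, with Trem2 at 4.02 and Apoe at 3.10, and without library 1 Apoe was at 2.43 and Tyrobp at 3.54.

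**Figure D3:**
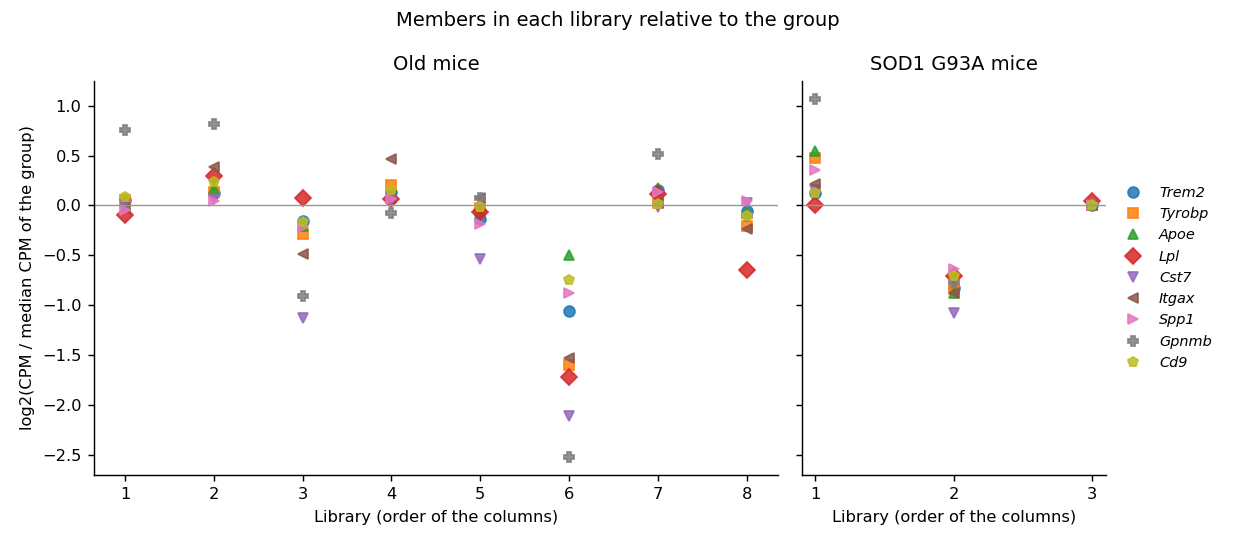
Level of each of the 9 genes in each old and each SOD1 G93A library, as log2 of CPM over the median of its group. Old library 6 and SOD1 G93A library 2 lie lowest for all 9 genes, and SOD1 G93A library 1 is highest for 8 of them.

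Genes of the microglia and macrophage lineage also rose, all 10 of 10 in both experiments, with a median log2 fold change of 1.53 with age and 2.82 in SOD1 G93A mice. Fcer1g, which encodes a signalling chain of Fc receptors, rose by 1.76 and 3.45. Itgam, which encodes CD11b, went from a mean of 21.2 to 42.3 CPM with age and from 21.5 to 94.3 CPM in SOD1 G93A mice. Of 14 homeostatic microglia genes, 3 rose with age and 8 in SOD1 G93A mice, and none fell past the threshold. The list was split, with log2 fold changes from -0.49 to 1.52 with age and from -0.39 to 4.08 in SOD1 G93A mice. By edgeR adjusted p alone, 9 were higher with age and 8 in SOD1 G93A mice, and 0 lower. The median log2 fold change of the list was 0.61 with age and 1.22 in SOD1 G93A mice. Fcrls, an Fc receptor-like gene of microglia, had the largest rise of the list in both, by 1.52 and 4.08 on the log2 scale. Cx3cr1, the fractalkine receptor, had a value of 0.91 with age, below the threshold, and rose by 1.91 in SOD1 G93A mice.

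Each gene of the set was then set against these lists, as its log2 CPM minus the mean log2 CPM of the list in the same library. Relative to the lineage list, the old libraries did not overlap the young ones and were higher for 4 genes: Trem2 by 0.90, Itgax by 3.62, Gpnmb by 3.66 and Cst7 by 3.68. Of all 13647 genes tested, 0.205% were higher without overlap on this scale and 88.8% lower, since the list itself rose. Apoe was lower by 0.39, without overlap, and Tyrobp, Lpl, Spp1 and Cd9 overlapped. In SOD1 G93A mice 6 genes were higher than controls relative to the lineage list without overlap. These were Trem2 by 0.91, Tyrobp by 0.98, Lpl by 1.54, Itgax by 3.89, Gpnmb by 4.06 and Cst7 by 4.58. Of all 14386 genes, 0.758% were higher and 96.7% lower without overlap on this scale. Spp1 was lower by 0.38, and Apoe and Cd9 overlapped. Relative to the 14 homeostatic genes, 6 of the 9 genes were higher without overlap in old mice and all 9 in SOD1 G93A mice, against 0.835% and 3.82% of all genes, with the exceptions in old mice being Lpl, Spp1 and Cd9. The values of Cst7 and Itgax on this scale depend on the prior count of 2 and understate their change. These relative values are descriptions with no test.

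**Figure D4:**
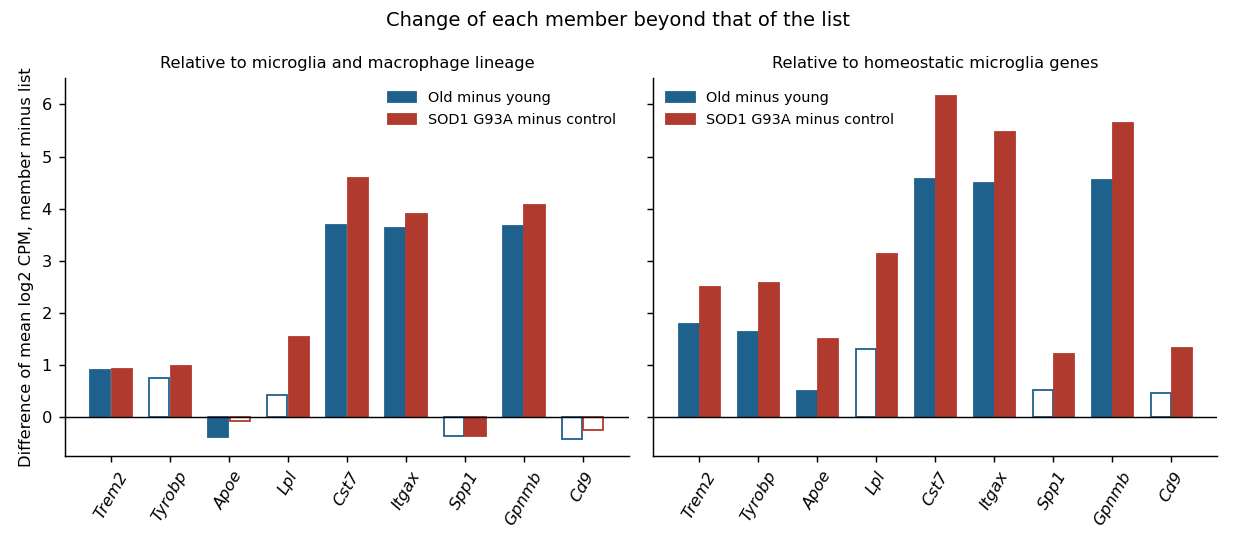
Difference between groups in the log2 CPM of each gene minus the mean log2 CPM of 10 lineage genes (left) or of 14 homeostatic genes (right), for old minus young and SOD1 G93A minus control mice; filled bars mark groups that do not overlap, open bars groups that do. Cst7, Itgax and Gpnmb rise by more than 3 log2 units relative to either list, while Apoe, Spp1 and Cd9 lie below 0 relative to the lineage list.

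In the list of genes tied to TREM2 and TYROBP signalling, 7 of 15 tested rose with age and 10 of 16 in SOD1 G93A mice. Median log2 fold changes were 0.93 and 2.03, and none fell past the threshold. The age count was 3 with limma on log2(FPKM + 1) and 2 with glmTreat. The list was mixed, with log2 fold changes from -0.33 to 1.94 with age and from -0.51 to 3.33 in SOD1 G93A mice. By edgeR adjusted p alone, the aging comparison had 9 increases and 2 decreases, and the ALS comparison 13 and 1. Syk, the kinase recruited by TYROBP, had a log2 fold change of 0.93 with age (edgeR adjusted p = 0.00137), just below the threshold of 1, and rose by 2.36 in SOD1 G93A mice. Plcg2, a phospholipase activated below SYK, rose by 1.04 and 1.90, and Inpp5d, which encodes the inhibitory phosphatase SHIP1, by 1.03 and 2.15. The phosphatase gene Ptpn6 rose by 1.88 and 3.01, the adaptor genes Blnk and Lat2 by 1.94 and 1.56 with age and by 3.26 and 3.33 in SOD1 G93A mice, and Vav1 by 1.29 and 2.70. Hcst, which encodes the alternative adaptor DAP10, was at no more than 0.525 CPM in young and old libraries and was not tested there. It was at 1.86, 1.21 and 1.25 CPM in SOD1 G93A mice against 0, 0.0842 and 0.615 CPM in controls, without overlap, and rose by 2.48 (edgeR adjusted p = 0.0289). Of the 5 other TREM receptor genes, none passed the filter on low counts in the aging comparison. Treml2 alone passed it in the ALS comparison and rose there by 3.07 (edgeR adjusted p = 0.00444). Hcst and Treml2, the latter at a mean of 0.53 CPM in controls, passed this filter through the SOD1 G93A libraries alone. For both genes only a rise could have been called.

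The partners of APOE and LPL took in receptors, transporters, apolipoproteins and regulators of the lipase. None of 13 tested genes passed both thresholds with age in edgeR, with a median log2 fold change near 0. By p alone, adjusted or not, 4 were higher and 3 lower, and DESeq2, which tests more low-count genes, called 2 higher. In SOD1 G93A mice 5 of 15 rose, with a median of 0.53. Abca1, the transporter that loads lipid onto APOE, was at 0.66 with age, below the threshold, and rose by 2.46 in SOD1 G93A mice. Clu, another lipid carrier, rose by 1.76 and Apoc1, an apolipoprotein gene beside Apoe, by 3.62 in SOD1 G93A mice. Apoc2, the cofactor of lipoprotein lipase, was at 1 count in all 3 control libraries together and at 2.54, 2.32 and 1.52 CPM in SOD1 G93A mice, a ratio of 75.4 with an exact 95% interval of 13.1 to 3019 for counting error. Angptl4, which encodes an inhibitor of lipoprotein lipase, rose by 3.02, from a mean of 0.623 to 5.09 CPM. Apoc2 and Angptl4 passed the filter on low counts only through the SOD1 G93A libraries, so only a rise could have been called.

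Among partners of the surface and secreted proteins, 4 of 18 tested genes rose with age and 6 of 18 in SOD1 G93A mice. The age count was 2 without young library 4 and 2 without old library 7. It was also 2 with limma on log2(FPKM + 1) and 2 with glmTreat. By edgeR adjusted p alone, 8 were higher with age and 0 lower. Itgb2, the integrin partner of Itgax, rose by 2.23 and 3.35, and Cd44, an osteopontin receptor gene, went from 27.9 to 55.9 CPM with age and rose by 2.73 in SOD1 G93A mice. The cathepsin genes Ctsc and Ctsh rose by 1.03 and 1.70 with age and by 2.29 and 2.87 in SOD1 G93A mice. Ctsl, which encodes another lysosomal cathepsin, was at 0.68 with age, below the threshold, and rose by 2.18 in SOD1 G93A mice. Mitf, a transcription factor gene whose family is known to drive Gpnmb in other cells, was at 17.4 ± 2.33 CPM in young and 18.4 ± 2.31 CPM in old mice (SD, n = 8), with a log2 fold change of 0.06 (edgeR adjusted p = 0.653). It was at 0.19 in SOD1 G93A mice (edgeR adjusted p = 0.246), so no change passed the test in either experiment.

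Of 35 further genes of the disease-associated programme, 14 of 31 tested rose with age and 27 of 35 in SOD1 G93A mice, with medians of 0.83 and 2.78. None fell past the threshold. The lysosomal marker gene Cd68 rose by 3.20 and 4.45, the lysozyme gene Lyz2 by 4.84 and 6.24, and the galectin-3 gene Lgals3 by 4.36 with age. In SOD1 G93A mice the inhibitory receptor gene Lilrb4a rose by 6.49 and the chemokine genes Ccl3 and Ccl6 by 6.71 and 4.36. Lilrb4a and Ccl3 were near 0 in controls, at means of 0.819 and 0.147 CPM. They passed the filter on low counts only through the SOD1 G93A libraries, so only a rise could have been called. The median over all genes tested was near 0 in both comparisons, at -0.0027 and 0.0031. The 9 genes of the set had the highest median of the lists drawn in the plot of the lists, a description of lists that were chosen with earlier results known.

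**Figure D5:**
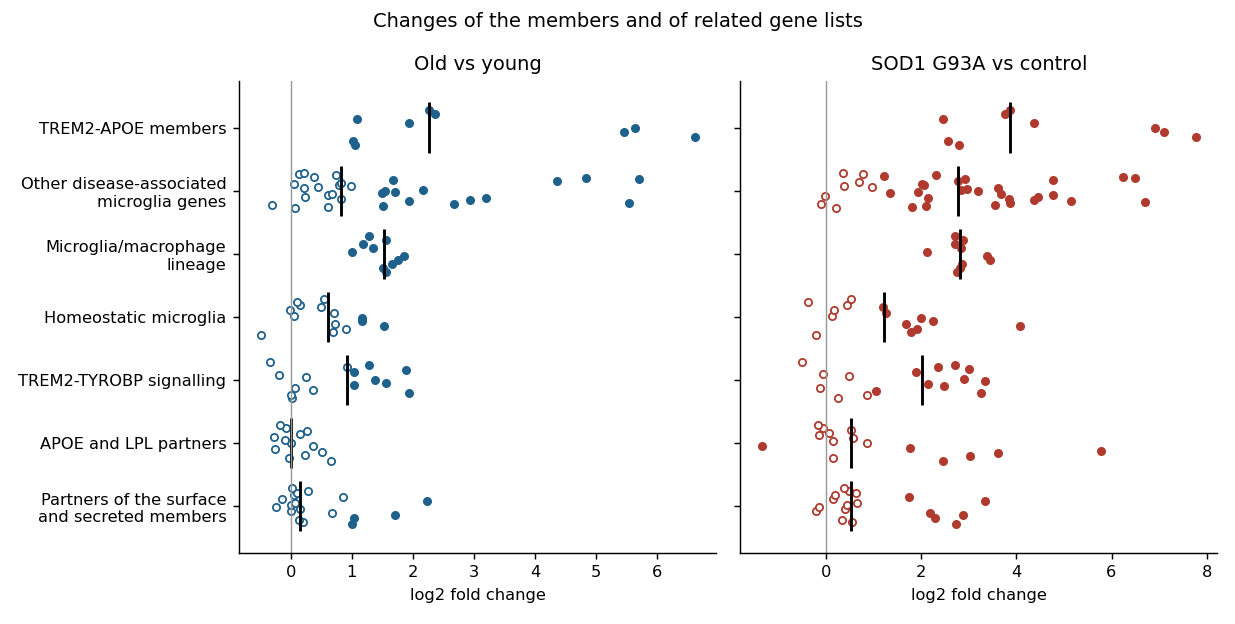
Log2 fold change of each tested gene (points) of the set and of 6 related lists in old against young mice (left) and SOD1 G93A against control mice (right); filled points passed both thresholds, open points did not, and the vertical bar is the list's median. The median of the set is 2.27 with age and 3.87 in SOD1 G93A mice, and the APOE and LPL partners lie around 0 with age.

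Markers of other cell types were read beside these results. With age, none of the 7 astrocyte, 8 oligodendrocyte, 7 motor neuron or 6 neuronal genes rose past the threshold in edgeR or DESeq2. At an unadjusted edgeR p under 0.05, 3 astrocyte genes were higher and 1 lower, 1 oligodendrocyte gene was higher and 5 lower, 1 neuronal gene was higher and 3 lower, and no motor neuron gene was either. The 8 T and NK cell markers summed to 0.875 to 3.17 CPM in old mice against 0.329 to 0.848 CPM in young mice, without overlap. None of them passed edgeR's filter on low counts, while DESeq2 and edgeR without the filter called 2 of them higher and also 1 border macrophage gene. In SOD1 G93A mice 3 of 7 astrocyte genes rose, led by Gfap at 2.40. The summed level of the 7 genes went from 5500 to 6020 CPM in controls to 11000 to 17600 CPM. The largest part of this rise was Gfap, from a mean of 1760 to 9260 CPM. Slc1a2 went from 2490 to 2620 CPM (edgeR adjusted p = 0.679). Motor neuron genes went the other way, from 251 to 285 CPM in controls to 137 to 152 CPM, with 3 of 7 genes falling past the threshold. The summed level of the 6 general neuronal genes was lower too, from 7140 to 7570 CPM in controls to 2750 to 4640 CPM, with 2 of the 6 falling past the threshold. Of 7 border macrophage genes, 4 were tested and 2 rose, namely Ms4a7, from a mean of 0.0561 to 7.33 CPM, and Mrc1, from 0.758 to 1.99 CPM, a count that was 1 when any of 5 of the 6 libraries was left out. Their summed level reached 8.36 to 18.2 CPM against 1.77 to 3.80 CPM in controls. Of 6 monocyte genes only Fn1 and Vcan were tested. Fn1 rose from 58.5 to 166 CPM, and Vcan, at 0.65 on the log2 scale, stayed below the threshold. Both were well expressed in controls, at 58.5 and 41.5 CPM, while 2 of the 6 genes had at most 3 counts in every control library. Which cells carried Fn1 and Vcan was not tested. The part of these cell types in the results for Apoe, Spp1 and Cd9, or for the other genes, was not tested.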

How the data were processed

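Whole spinal cord RNA was sequenced from 22 mice, 1 library per mouse. The authors aligned reads to mm10 with STAR, estimated gene abundance with RSEM on an Ensembl annotation and used SAMtools 1.3. The authors deposited a table of expected counts, not normalized between libraries, and a table of log2 values, the log2 of FPKM + 1. FPKM was used only to compare levels between genes. Columns name the group and carry no replicate number. Among 62 pairs of libraries within groups, the lowest chi-square per degree of freedom was 2.36, so none agreed within sampling noise.

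Expected counts were rounded and tested with R 4.3.3 and edgeR 4.0.16: filterByExpr (minimum count 10, minimum total 15), TMM factors, and the quasi-likelihood test, with Benjamini-Hochberg adjustment across every gene tested, separately for each comparison. Genes were called at a log2 fold change beyond 1 and an adjusted p-value under 0.05. Genes near 0 in young or control mice, such as Cst7, Itgax, Hcst, Treml2, Apoc2, Angptl4, Ccl3, Lilrb4a and Ms4a7, passed the filter only through the other group. Such genes could be called higher but not lower. The difference of the changes was tested in one fit of all 22 libraries. On simulated counts with 200 genes shifted by 1.5 on the log2 scale, 98.5% were recovered among 13647 genes of the aging design and 90% among 14386 genes of the ALS design. Alternatives used DESeq2 1.42.0, RLE and upper-quartile factors, other filters, limma 3.58.1 on log2(FPKM + 1), glmTreat and each library left out. Symbols came from GENCODE M21, which held 21842 of the 21995 genes, and figures were drawn with matplotlib 3.10.9. Intervals of count ratios are exact and cover counting error only.

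The 10 genes, the lists and the tests were chosen with earlier results of these data known, so the lists lend no independent support. Named in the text are all members, 11 direct partners whatever their values, and at most 6 genes of each list with the smallest adjusted p-values in a comparison. Results for some list genes are not reported here.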

Additional observations from a re-analysis of the deposited data

Results flagged for a closer look

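In old library 6, the lowest value of the group lay farther from its neighbours than Dixon's 95% critical value for 8 samples allows for 3 genes of the set and 2 partners. Trem2 was at 22.5 CPM there, against 42.1 to 52.0 CPM in the other old libraries. Tyrobp was at 17.4 CPM against 43.2 to 60.7 CPM, and Spp1 at 131 CPM against 208 to 265 CPM. Of the partners, Plcg2 was at 6.79 CPM against 12.1 to 14.9 CPM and Cd44 at 40.1 CPM against 53.2 to 63.2 CPM. These are 5 of 40 groups of values examined, where chance marks about 1 in 20, and all 5 come from the same library.

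The change in SOD1 G93A mice exceeded the change in old mice, by edgeR's quasi-likelihood test of the difference with Benjamini-Hochberg adjustment, for 6 genes of the set. Over all 14502 genes tested, 11.6% passed in this direction and 14.2% in the other. On the log2 scale the difference was 1.38 for Trem2, 1.58 for Tyrobp, 1.73 for Apoe, 2.40 for Lpl, 1.35 for Spp1 and 1.51 for Cd9. Among the 11 partners it was 1.40 for Syk, 0.83 for Plcg2, 1.10 for Inpp5d, 1.09 for Itgb2, 1.23 for Ctsc, 1.47 for Ctsl, 1.70 for Cd44 and 1.77 for Abca1, with adjusted p-values from 7.18e-06 for Cd44 to 0.0291 for Plcg2. Kit, sex composition, age of the reference mice and depth all coincide with experiment in this comparison and cannot be told apart.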

How the results depend on the processing

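The 9 measured genes kept their direction under every alternative run. With age, glmTreat, which tests against a log2 fold change of 1, called 6 of 9, with Apoe, Spp1 and Cd9 at an adjusted p of 1. Limma on log2(FPKM + 1) called 8, with Cd9 at 0.96, and leaving out 1 library gave 8 or 9 genes. A filter of at least 10 counts in every library kept 7 of the 9 genes, as Cst7 and Itgax were then not tested, and all 7 rose in both comparisons. All other fits, and leaving out any ALS library, called the 9 genes in SOD1 G93A mice. The difference of the changes passed for 6 genes with RLE factors, with no filter, with DESeq2 and without each ALS library, the settings run for it. On the log2(FPKM + 1) scale the age changes of Cst7 and Itgax were 3.6 and 2.43, as the pseudocount understates low genes. The number of all genes higher with age was 297, against 474 with DESeq2, 508 with no filter, 169 with the strict filter, 127 with limma, 119 with glmTreat and 1839 without a threshold on the fold change. In SOD1 G93A mice it was 1223, against 558 with glmTreat and 2641 without that threshold, and the larger changes numbered 1682, against 1075 without SOD1 G93A library 1. No paired analysis was possible because the columns carry no replicate numbers. With age, glmTreat called 6 of 10 lineage genes and 0 of 14 homeostatic genes, against 10 and 3 with the quasi-likelihood test, and limma called 7 lineage genes. Low counts, at most 2 per young library for Cst7 and 7 for Itgax and at most 8 and 12 per control library, limit the precision of these genes.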
